A study of Mus musculus with 6 samples.

Results

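The 8 genes encoding the subunits of the cytosolic chaperonin CCT were examined in single mouse morulae lacking Rbpj, the DNA-binding effector of Notch signalling. They were taken by name, Tcp1, Cct2, Cct3, Cct4, Cct5, Cct6a, Cct7 and Cct8, and all 8 were found among the 12125 genes of the table. RNA was sequenced from 6 individual embryos at embryonic day 2.5, all of outbred background, with no treatment named in the labels. There were 3 Rbpj-/- embryos, of which embryos 1 and 2 came from litter 808 and the third from litter 810, and 3 controls, all of litter 808: 1 Rbpj+/- heterozygote and 2 Rbpj+/+ embryos, wildtype 1 and wildtype 2. The numbers 808 and 810 stand in the sample titles and were read here as litters. Rbpj was constitutively deleted in a null line kept as heterozygotes, and the study's methods assigned genotypes from the expression of Rbpj and of the neomycin cassette in the same libraries. Each value is from 1 library of 1 whole embryo, so that fewer cells of a type and less RNA per cell cannot be told apart.

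CCT, also called TRiC, is a barrel of stacked rings in which 8 different but related subunits each take a fixed place. It closes over an unfolded protein and uses ATP to fold it. Actin and tubulin are its best known clients, and several cell cycle and signalling proteins pass through it as well. Because each ring takes one copy of every subunit, the proportions among the 8 transcripts are of interest beside their levels. The subunits are named alpha (Tcp1), beta (Cct2), gamma (Cct3), delta (Cct4), epsilon (Cct5), zeta (Cct6a), eta (Cct7) and theta (Cct8). Tcp1 was the first to be described, as a gene of the mouse t-complex.

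The 8 genes lie on 8 different chromosomes of GRCm38. Tcp1 is at chromosome 17 (12915701 to 12925067), Cct2 at chromosome 10 (117051001 to 117063814), Cct3 at chromosome 3 (88297116 to 88321767) and Cct4 at chromosome 11 (22990519 to 23003780). Cct5 is at chromosome 15 (31590800 to 31601804), Cct6a at chromosome 5 (129786998 to 129846371), Cct7 at chromosome 6 (85451514 to 85468475) and Cct8 at chromosome 16 (87483326 to 87495873). Their main annotated transcripts are between 1853 bases (Cct5) and 2484 bases (Cct4) long. RefSeq promoter windows (GRCm38.p6, 250 bases before to 50 after a gene's start) matched 7 of the 8 genes (all but Cct4), with 9 windows in all. The core of the RBPJ recognition sequence, TGGGAA, searched on both strands, was found in 2 of the 9 windows, a Cct5 window and the Cct8 window, against 25.6% of all 32851 mouse windows. CCAAT, a box common in promoters of housekeeping genes, was found in 4 of the 9 windows (Tcp1, Cct3, Cct6a and Cct7), against 37.4% of all windows, and Cct7 held 3 copies. The heat shock element GAANNTTC was in 1 of 9 (Cct2; 7.86% of all windows), the ETS site CCGGAAGT in 2 of 9 (Tcp1 and Cct8; 3.89%) and the GC box GGGCGG in 8 of 9 (35.7%). The 3 windows below are those of Cct5 and Cct8, with the letters of the RBPJ core in capitals as they read on the gene's strand (TTCCCA), and of Cct7, with its CCAAT letters in capitals (ATTGG). They are shown because the values of Cct5 and Cct8 did not overlap between genotypes and Cct7 had the highest level per length in controls. Such non-overlap, in either direction, was seen in 21.7% of all genes tested. Neither Cct5 nor Cct8 was called in limma with all embryos included. The windows are chr15:31601797-31602096 (minus strand) for Cct5, chr16:87495820-87496119 (minus strand) for Cct8 and chr6:85451255-85451554 (plus strand) for Cct7. A match is a run of letters and not evidence that a factor binds there.
Cct5: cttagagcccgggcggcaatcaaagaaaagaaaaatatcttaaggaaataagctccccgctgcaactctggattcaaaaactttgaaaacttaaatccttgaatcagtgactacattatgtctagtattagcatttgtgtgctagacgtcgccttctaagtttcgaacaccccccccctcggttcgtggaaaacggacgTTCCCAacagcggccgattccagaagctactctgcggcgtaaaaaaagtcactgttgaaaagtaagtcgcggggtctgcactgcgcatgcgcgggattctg
Cct8: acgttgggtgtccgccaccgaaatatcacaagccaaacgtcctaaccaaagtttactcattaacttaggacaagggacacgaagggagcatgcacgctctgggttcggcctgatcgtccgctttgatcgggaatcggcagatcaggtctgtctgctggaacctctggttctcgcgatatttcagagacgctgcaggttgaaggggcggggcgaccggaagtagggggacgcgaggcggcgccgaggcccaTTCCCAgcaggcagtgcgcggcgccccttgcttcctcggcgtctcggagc
Cct7: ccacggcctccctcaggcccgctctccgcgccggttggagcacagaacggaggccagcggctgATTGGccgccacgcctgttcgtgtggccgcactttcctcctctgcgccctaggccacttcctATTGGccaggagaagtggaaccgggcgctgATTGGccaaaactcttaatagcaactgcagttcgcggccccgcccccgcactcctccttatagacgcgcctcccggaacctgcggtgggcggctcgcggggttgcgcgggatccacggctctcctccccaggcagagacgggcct

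Libraries held 2962425, 4330126 and 10064016 reads in the Rbpj-/- embryos 1 and 2 and the litter 810 embryo, and 12690030 to 14585313 reads in controls, so depth moved with genotype. Litter 810 held no control, and in the comparison of all embryos its litter and genotype cannot be told apart. Values are TMM-normalised CPM, called normalised values below, and the 8 members had between 1000 and 14907 reads in every library. Rbpj itself was at 10.5, 24.3 and 1.32 in Rbpj-/- embryos, against 37.0 in the heterozygote and 111 and 96.9 in the wildtypes, with no overlap. Since genotypes were called from this gene, its level is no independent check. Of 11 morula markers 10 were in the table, with summed values of 4409 to 6542 in Rbpj-/- embryos and 3711 to 3928 in controls. This sum was led by Dppa3, at 5435, 5456 and 2864 in Rbpj-/- embryos, against 2574, 2243 and 2223 in controls. Between littermates 6 of the 10 markers had log2 fold changes below 0 (median −0.77), as did 6638 of the 12099 genes tested (median −0.16). In limma Cdx2, Gata3 and Cdh1 were called lower and Dppa3 higher, against 11.3% of all genes called lower and 5.85% higher. None of the 8 cumulus cell markers was among the genes listed. Oviduct markers (5 of 6 in the table) summed to 232 to 360.0 in Rbpj-/- and 259 to 361 in control embryos. Epcam led this sum in every embryo. Ovgp1 varied more, at 92.2, 9.59 and 117 in Rbpj-/- embryos, against 88.1, 28.0 and 117 in controls. Blood markers (5 of 7) summed to 210 in Rbpj-/- 1, 41.5 in Rbpj-/- 2 and 7305 in the litter 810 embryo, against 1110 in the heterozygote, 5.39 in wildtype 1 and 5447 in wildtype 2, led by globin genes. The part of depth and of blood or oviduct RNA in the differences below was not tested beyond the values given beside them.

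All 8 subunit genes were strongly expressed in morulae of both genotypes. Their mean values lay between the 95.7th percentile (Cct2) and the 99.2nd percentile (Cct7) of all genes in the table. Together they took 0.479%, 0.644% and 0.569% of the reads of the Rbpj-/- embryos, against 0.530%, 0.50% and 0.524% of those of the heterozygote, wildtype 1 and wildtype 2. The summed value was 5154, 6859 and 5385 in Rbpj-/- embryos, against 5166, 4839 and 5120.0 in controls, so that groups overlapped and a single embryo, Rbpj-/- 2, stood well above the others. The mean was 5799 ± 925 in Rbpj-/- and 5042 ± 177 in control embryos (SD, n = 3 each). Rbpj-/- 2 had the highest value of the 6 embryos for 6 of the 8 genes, and wildtype 1 the lowest for 4.

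**Figure D1:**
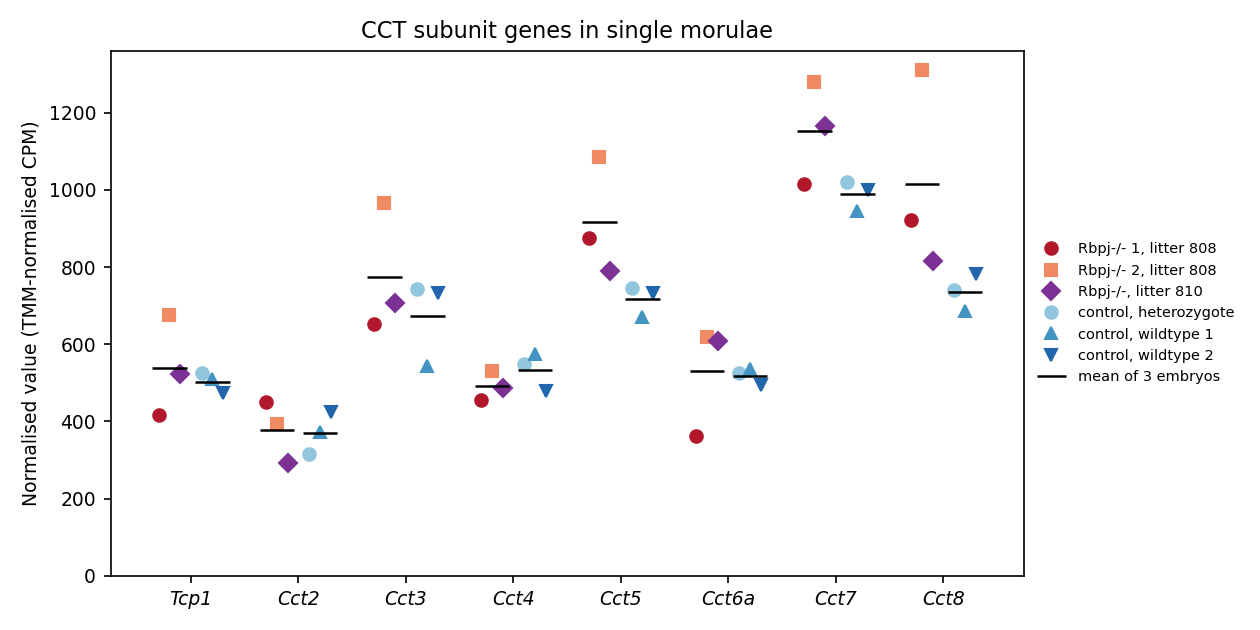
Normalised value (TMM-normalised CPM, y axis from 0) of each CCT subunit gene in the 6 single embryos, with Rbpj-/- embryos left of controls for each gene and a bar at each mean of 3. For Cct5 and Cct8 all 3 Rbpj-/- embryos lie above all 3 controls, while the groups of the other 6 genes overlap.

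Cct8, the theta subunit, which promotes assembly of the complex in human pluripotent stem cells, had the highest mean difference. Its normalised value was 922, 1310.1 and 816 in Rbpj-/- embryos, against 741, 686 and 782 in the heterozygote, wildtype 1 and wildtype 2. All 3 Rbpj-/- values were above all 3 control values, though the litter 810 embryo exceeded the highest control by little. Across all 6 embryos the log2 fold change of Cct8 was 0.44 ± 0.27 (SE; 95% interval −0.15 to 1.02), on the log2(value + 1) scale used throughout, and it did not pass the test (limma, adjusted p = 0.420).

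Cct5, the epsilon subunit, which is among the subunits that bind ATP tightly in yeast, was at 874, 1086 and 789.6 in Rbpj-/- embryos, against 746, 669.9 and 733 in controls. Again the groups did not overlap. The log2 fold change was 0.34 ± 0.25 (SE; 95% interval −0.20 to 0.89; limma, adjusted p = 0.499). Thus 2 of the 8 genes had groups that did not overlap, both with Rbpj-/- above, against 21.7% of the 12099 genes tested in either direction (8.91% with Rbpj-/- above and 12.8% with Rbpj-/- below). For a single gene an exact permutation test of 3 against 3 embryos cannot give a two-sided p below 0.1.

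Cct7, the eta subunit, was at 1017, 1279.9 and 1166 in Rbpj-/- embryos, against 1022, 947 and 999 in controls. Only Rbpj-/- 1 fell within the control range, and the log2 fold change was 0.22 ± 0.24 (SE; limma, adjusted p = 0.676). Cct3, the gamma subunit, was at 653, 965 and 706 in Rbpj-/- embryos, against 742, 544 and 734 in controls. The groups of Cct3 overlapped widely, with a log2 fold change of 0.20 ± 0.27 (SE; limma, adjusted p = 0.739).

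The other 4 genes were close to 0 in their log2 fold changes. Tcp1 was at 416, 675 and 522 in Rbpj-/- embryos, against 526, 509 and 475 in controls, a log2 fold change of 0.07 ± 0.26 (SE). Here the lowest and the highest of the 6 embryos were both Rbpj-/- littermates. Cct2, the beta subunit, which has also been described as a receptor for the autophagy of protein aggregates, was at 452, 392 and 291 in Rbpj-/- embryos, against 316, 373 and 425 in controls (log2 fold change 0.01 ± 0.27, SE). In Cct2 the embryo with the highest value was Rbpj-/- 1, where 3 of the other members had their lowest.

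Cct6a, the zeta subunit, whose close relative Cct6b is a testis form, was at 363, 619 and 608 in Rbpj-/- embryos, against 525, 537 and 493 in controls (log2 fold change −0.01 ± 0.28, SE). Rbpj-/- 1 was the lowest of the 6 and the other Rbpj-/- embryos the highest. Cct4, the delta subunit, was at 457, 531 and 486 in Rbpj-/- embryos, against 549, 574 and 480.0 in controls. Its estimate was the lowest of the 8, −0.12 ± 0.24 (SE; 95% interval −0.65 to 0.41; limma, adjusted p = 0.829), and its groups overlapped.

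Over the 6 embryos 0 of 8 members were past an adjusted p of 0.05, with limma, edgeR and DESeq2 alike, and 0 of 8 at an unadjusted p under 0.05 with limma. The background was 0% of the 12099 genes tested in limma, 16.4% at the unadjusted threshold, and 4.59% of the genes given an adjusted p in DESeq2. In edgeR 0 genes were called lower and 0 higher. Rbpj itself did not pass (log2 fold change −3.09; limma, adjusted p = 0.174). The counts of 0 in limma and edgeR are thus no trait of the members. The median log2 fold change was 0.13 over the 8 members and −0.11 over all genes. The 95% interval lay within −1 to 1 for 7 of the 8 members, all but Cct8, against 7.85% of all genes, so for these 7 a change of 2-fold or more lay outside the interval. Intervals of the members were narrower than those of all genes (median width 1.17 and 2.72). The members are among the most highly expressed genes, and no background of similarly expressed genes was computed. Estimates near 0 took the other sign under some alternatives (Tcp1, Cct2, Cct6a and, in single settings, Cct5 and Cct7), whereas Cct3, Cct4 and Cct8 kept theirs in all 20 settings tried.

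Between littermates, with litter as a covariate so that Rbpj-/- 1 and 2 were set against the 3 controls of litter 808 and the litter 810 embryo was absorbed by its litter term, Cct8 and Cct5 again had the largest estimates. The log2 fold change of Cct8 was 0.58 ± 0.21 (SE; 95% interval 0.11 to 1.05; limma, adjusted p = 0.0864) and that of Cct5 was 0.45 ± 0.19 (SE; 95% interval 0.02 to 0.87; limma, adjusted p = 0.140). Neither passed, and 0 of the 8 members did, against 17.1% of all genes called (5.85% higher and 11.3% lower in Rbpj-/-). At an unadjusted p under 0.05, limma counted 2 of 8 members and 32.2% of all genes, while edgeR called 0 members at an adjusted p of 0.05, against 12.6% of all genes.

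DESeq2 with the same litter term called both genes, with log2 fold changes of 0.67 for Cct8 (adjusted p = 0.00762) and 0.53 for Cct5 (adjusted p = 0.0183), 2 of 8 members against 26.2% of the genes with an adjusted p there (11.1% higher). Over the 19 alternatives of this comparison Cct8 passed in 2, with adjusted p between 0.00762 and 0.505, and Cct5 in 1, with adjusted p between 0.0183 and 0.946. Without Rbpj-/- 1 the estimate of Cct8 was 0.83 (limma, adjusted p = 0.0263), and without Rbpj-/- 2 it was 0.33 (limma, adjusted p = 0.248). When all libraries were thinned to the shallowest one Cct8 was at 0.60 and Cct5 at 0.41. With the dependence of fold change on transcript length removed Cct8 was at 0.37, and Cct5, whose transcript is the shortest of the 8, at −0.03.

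For the other 6 members the littermate estimates were 0.25 for Cct3, 0.21 for Cct7, 0.19 for Cct2, 0.08 for Tcp1, −0.11 for Cct4 and −0.13 for Cct6a, each log2, with limma adjusted p between 0.491 and 0.859. The median over the 8 was 0.20, against −0.16 over all genes. This median depended on the embryos: it was 0.40 without Rbpj-/- 1 and 0.01 without Rbpj-/- 2. As in the comparison of all embryos, the 95% interval was within −1 to 1 for 7 of 8 members (all but Cct8), against 7.65% of all genes. Median widths were 0.95 for the members and 2.60 for all genes. Rbpj-/- 1 and 2 were both above all 3 controls for Cct5 and Cct8 and in none of the other 6, while 21.2% of all genes showed this. No member had Rbpj-/- 1 and 2 both below all controls, against 27% of all genes (48.2% in either direction).

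**Figure D2:**
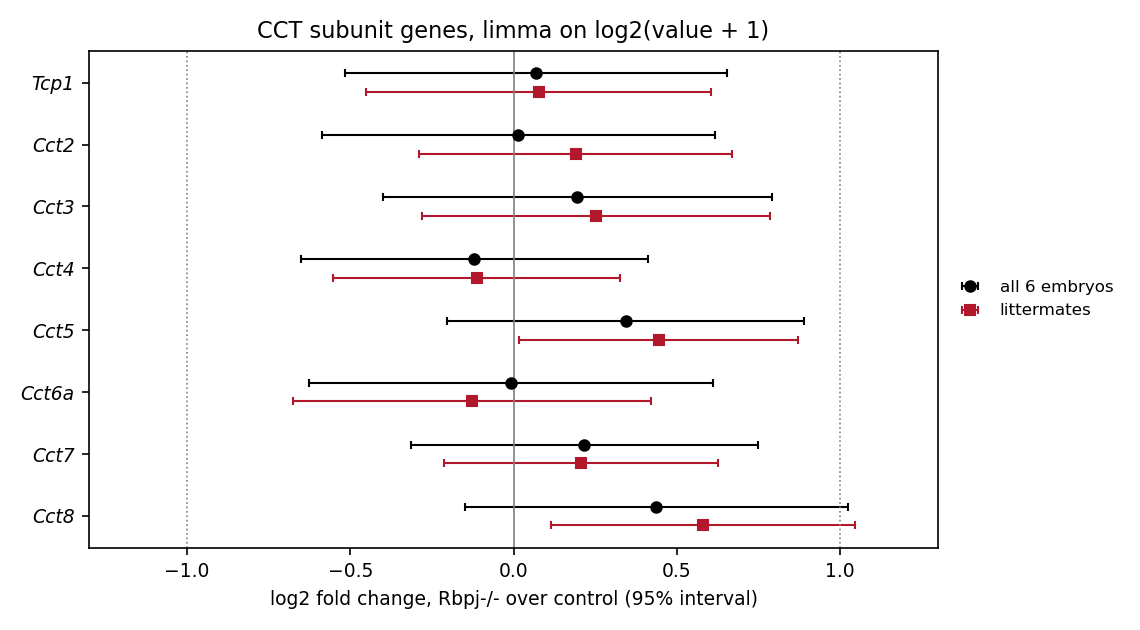
Log2 fold change of each CCT subunit gene, Rbpj-/- over control, with its 95% interval (x axis, limma on log2(value + 1)), for all 6 embryos (black circles) and for littermates with litter as a covariate (red squares), and dotted lines at −1 and 1. In both comparisons the interval of Cct8 alone crosses 1, and between littermates the intervals of Cct5 and Cct8 lie above 0.

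The order of the subunits was compared per kilobase of transcript. In controls it was Cct7 (405 ± 15.8 normalised value per kb), Cct5 (387 ± 22.0), Cct3 (341 ± 56.6), Cct8 (308 ± 20.2), Cct4 (215 ± 19.6), Cct6a (211 ± 9.13), Tcp1 (206 ± 10.7) and Cct2 (189 ± 27.7; SD, n = 3 each). On this scale a high set (Cct7, Cct5, Cct3 and Cct8) was separated from a low set (Cct4, Cct6a, Tcp1 and Cct2) in all 6 embryos. The sets were drawn from this control order, so their separation in the controls is not independent of it. Per kilobase of coding sequence, without Cct6a in the low set, it held in 5 of 6, wildtype 1 being the exception. Values not divided by length also gave 5 of 6, with the same exception. Per transcript length, neighbours within each set had overlapping ranges in both groups and did not differ beyond their spread, although Cct5 was above Cct3 in all 6 embryos. Per coding length, which could be had for 7 of the genes, Cct7 was above Cct5 in all 6 embryos with separate ranges in controls (580.0 to 626 for Cct7 and 413 to 460 for Cct5), and Cct8 was above Cct3 in 5 of 6.

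In Rbpj-/- embryos the high set had per-length levels of 495 ± 82.5 for Cct5, 473 ± 54.1 for Cct7, 424 ± 109 for Cct8 and 392 ± 84.5 for Cct3, and the low set of 220 ± 53.2 for Tcp1, 216 ± 59.0 for Cct6a, 198 ± 15.0 for Cct4 and 193 ± 41.3 for Cct2 (SD, n = 3 each). Per transcript length the highest level was 3.19, 2.93 and 3.21 times the lowest within the Rbpj-/- embryos, against 2.59, 2.04 and 2.12 times within the heterozygote, wildtype 1 and wildtype 2. Per coding length the groups overlapped, with 2.496, 3.26 and 3.93 times in Rbpj-/- embryos, against 3.18, 2.498 and 2.31 times in controls. The order rests on 1 annotated transcript per gene, and Cct6a is annotated there without a coding transcript.

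The proportions within an embryo do not depend on how libraries are scaled to each other. Shares of the same sum are tied to each other, so that a higher share of some genes lowers that of others. How often shares separate in other sets of genes was not computed. For the values of single genes, 21.7% of all genes had groups that did not overlap. Cct4 took 8.86%, 7.74% and 9.02% of the summed value of the 8 genes in Rbpj-/- embryos, against 10.6%, 11.9% and 9.38% in controls. All Rbpj-/- embryos were below all controls in this share, although the normalised values of Cct4 overlapped. The difference of the means was −2.08 percentage points (SE 0.82), with 8.54% ± 0.70 in Rbpj-/- and 10.6% ± 1.24 in control embryos (SD, n = 3 each). Cct5 took 17.0%, 15.8% and 14.7% in Rbpj-/- embryos, against 14.4%, 13.8% and 14.3% in controls, all Rbpj-/- above, with a difference of 1.62 percentage points (SE 0.69).

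Cct8 took 17.9%, 19.1% and 15.2% in Rbpj-/- embryos, against 14.3%, 14.2% and 15.3% in controls, and here the litter 810 embryo lay just under wildtype 2. The mean shares of Cct8 were 17.4% ± 2.02 in Rbpj-/- and 14.6% ± 0.59 in control embryos (SD, n = 3 each), a difference of 2.79 percentage points (SE 1.22). With values divided by transcript length its shares no longer overlapped. Cct7 had similar mean shares, 20.01% ± 1.52 in Rbpj-/- and 19.6% ± 0.14 in control embryos, as did Cct3 with 13.3% in each group. Tcp1 (9.21% and 9.99%), Cct6a (9.12% and 10.3%) and Cct2 (6.63% and 7.37%) had lower mean shares in Rbpj-/- than in control embryos, with overlapping groups. Leaving out each embryo in turn, the difference for Cct4 stayed between −2.70 and −1.46 percentage points, that for Cct5 between 1.05 and 2.20 and that for Cct8 between 1.93 and 3.90. These shares, and the ratios below, were computed without removing a dependence on transcript length, which can differ between libraries. With it removed, the log2 fold change of Cct5 was −0.028 over 6 embryos and −0.030 between littermates. Cct4 and Cct8 kept their signs in both comparisons.

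**Figure D3:**
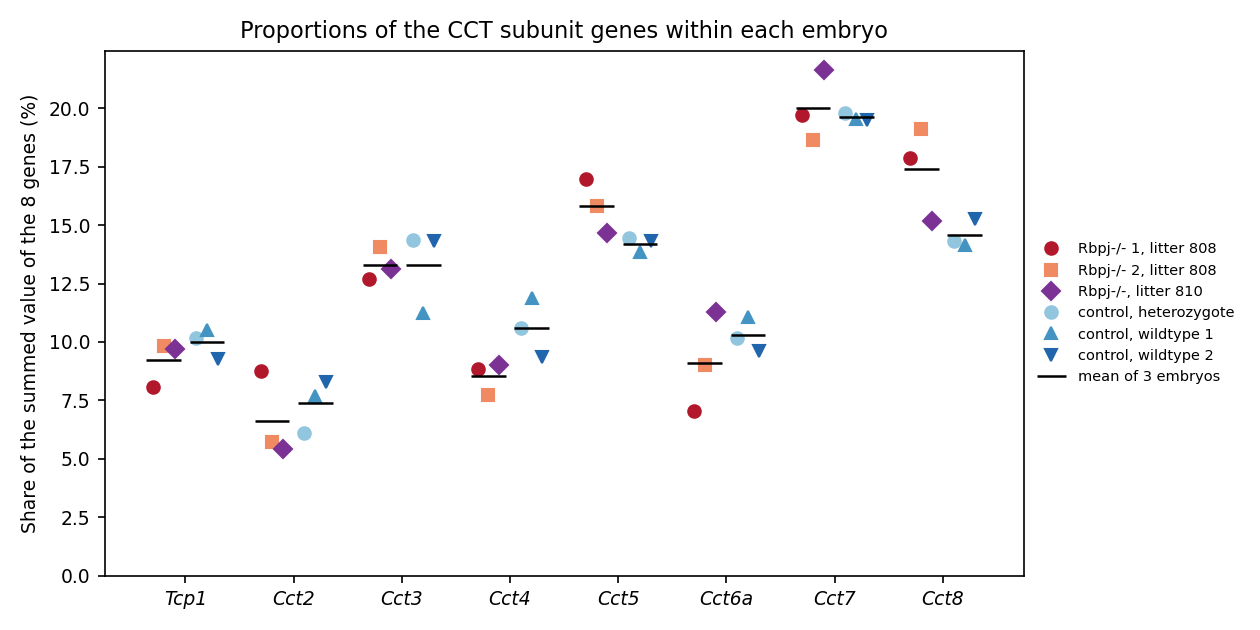
Share of the summed normalised value of the 8 CCT subunit genes taken by each gene (%, y axis from 0) in the 6 single embryos, with Rbpj-/- embryos left of controls for each gene and a bar at each mean of 3. The Rbpj-/- embryos lie below all controls for Cct4 (7.74% to 9.02%) and above them for Cct5 (14.7% to 17.0%). The groups of the other genes overlap.

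Ratios between single subunits gave 28 pairs, of which 3 (10.7%) did not overlap between genotypes, against 19.1% of the 73186851 pairs of tested genes. All 3 had Cct4 as numerator and were lower in Rbpj-/- embryos, and they rest on the same values as its share. Cct4 over Cct7 was 0.449, 0.415 and 0.417 in Rbpj-/- embryos, against 0.537, 0.607 and 0.481 in controls. Cct4 over Cct5 was 0.522, 0.489 and 0.615 in Rbpj-/- embryos, against 0.735, 0.857 and 0.655 in controls. Cct4 over Cct8 was 0.495, 0.405 and 0.595 in Rbpj-/- embryos, against 0.741, 0.837 and 0.614 in controls, and the litter 810 embryo was close to wildtype 2. The share of separated pairs was below that of all gene pairs. Over the 6 embryos the steadiest ratio was Cct5 over Cct8 (SD of the log2 ratio 0.0976) and the least steady Cct2 over Cct6a (0.477), with a median of 0.256 over the 28 pairs.

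As a description of the pattern over the 6 embryos, the genes outside the chaperone lists with a mean value of at least 10 whose log2 values were most like the mean of the 8 subunits were Csnk1e (casein kinase 1 epsilon; Pearson's r = 0.991), Galk1 (galactokinase; 0.982), Mpp1 (0.981), Cnpy4 (0.980) and Ppan (a ribosome biogenesis factor; 0.975). They were picked as the highest of 7718 genes, 54 of which exceeded 0.9, and the points share library and depth. Csnk1e was at 334, 459 and 344 in Rbpj-/- embryos, against 350.5, 315 and 339 in controls. Its peak, like that of 6 of the 8 subunits, was Rbpj-/- 2. The subunits did not all share a pattern. Pearson's r with the mean of the other 7 was −0.14 for Cct2, 0.02 for Cct4 and 0.34 for Cct6a. For the rest it was between 0.79 (Tcp1) and 0.85 (Cct7).

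Several members share exonic sequence with neighbours, and the library kit does not keep strand. Tcp1 overlaps Mrpl18 by 141 bases and Acat3 by 571 bases, and Cct6a overlaps Psph by 452 bases. Cct7 overlaps Pradc1 by 214 bases and Cct8 overlaps Usp16 by 192 bases. All of these neighbours lie on the other strand. On the same strand, Tcp1 overlaps the snoRNA gene Gm26130 by 138 bases and Cct6a overlaps the snoRNA gene Snora15 by 102 bases. In these regions reads cannot be given to one gene. The neighbours in the table had mean values of 150.2 (Mrpl18), 17.5 (Psph), 33.6 (Pradc1) and 222 (Usp16), below those of the member they overlap.

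Cofactors that hand proteins to CCT included genes that passed the test. Prefoldin, a complex of 6 subunits that captures new actin and tubulin chains, rose between littermates for 3 of its 6 genes and none fell, against 5.85% of all genes called higher. The median log2 fold change of the 6 prefoldin genes was 1.02. Pfdn5 was at 202, 148 and 63.5 in Rbpj-/- embryos, against 79.2, 68.8 and 54.6 in controls. Rbpj-/- 1 and 2 were above all controls and the litter 810 embryo was among them (littermate log2 fold change 1.36 ± 0.29, SE; limma, adjusted p = 0.0153). Pfdn1 was at 123, 93.7 and 64.5 in Rbpj-/- embryos, against 45.7, 46.4 and 33.4 in controls, without overlap (1.35 ± 0.32; limma, adjusted p = 0.0205). Pfdn6 was at 513, 305 and 139.6 in Rbpj-/- embryos, against 199, 159.6 and 177 in controls (1.15 ± 0.27; limma, adjusted p = 0.0197). Pfdn2 had a log2 fold change of 0.89 that did not pass in limma (adjusted p = 0.0544), and it passed in 7 of 19 alternatives. DESeq2 called it (1.03, adjusted p = 0.00559) and with it 4 of the 6 prefoldin genes, against 11.1% of genes called higher there. Prefoldin transcripts are short, and with the length dependence removed the estimates were 0.53 for Pfdn5, 0.54 for Pfdn1 and 0.25 for Pfdn6, and 0 of 6 passed. Without Rbpj-/- 1 the adjusted p was 0.0676 for Pfdn5, 0.0858 for Pfdn1 and 0.0825 for Pfdn6, and each of the 3 calls was also lost without wildtype 1 or without wildtype 2, those of Pfdn1 and Pfdn6 also without the heterozygote.

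Of 3 phosducin-like genes tested, none fell and 1 rose between littermates, against 5.85% of all genes called higher. These genes encode cochaperones that bind CCT, and the gene that rose was Txndc9. Its value was 287, 198 and 173 in Rbpj-/- embryos, against 126, 113 and 143 in controls, without overlap (log2 fold change 0.91 ± 0.25, SE; limma, adjusted p = 0.0377; 0.153 without Rbpj-/- 1). Pdcl (−0.95) and Pdcl3 (0.37) did not pass. None of 7 prefoldin-like and R2TP genes was called in limma, the 3 lowest unadjusted p under 0.05 being those of Pdrg1 (1.17), Pih1d1 (1.18) and Ruvbl1 (0.85), and Uri1 was at −0.77. edgeR called none of them either, and DESeq2 called Pdrg1. The backgrounds over all genes were 32.2% at the unadjusted threshold and 26.2% in DESeq2, beside 17.1% called in limma and 12.6% in edgeR. The 6 tubulin folding cofactors also gave 0 calls in limma, with 2 at an unadjusted p under 0.05, Arl2 (1.43) and Tbcb (1.01), beside Tbca (0.54) and Tbcd (−1.36). edgeR again called none, and DESeq2 called Arl2 and Tbcb, so both counts were near the same backgrounds. The CCT-like paralogs Cct6b and Mkks, the 2 of 5 in the table, gave 0 calls in limma, edgeR and DESeq2, and none at an unadjusted p under 0.05 in limma. Cct6b was at 21.4, 19.9 and 4.42 in Rbpj-/- embryos, against 6.69, 12.3 and 2.14 in controls, so that it was a small addition to Cct6a in every embryo.

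**Figure D4:**
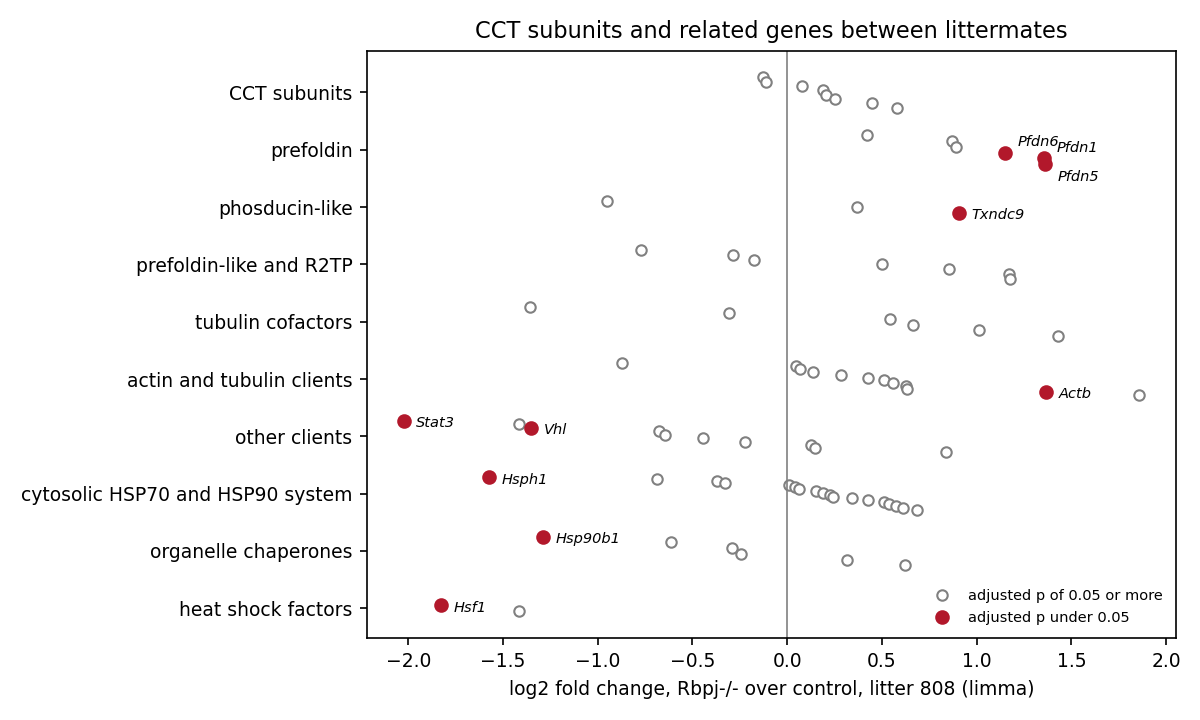
Log2 fold change between littermates (x axis, Rbpj-/- over control, limma) of each tested gene of the CCT, cofactor, client and chaperone lists (rows), filled in red where the adjusted p was under 0.05. None of the 8 CCT subunits is filled, while 3 prefoldin genes, Txndc9 and Actb are on the right and Stat3, Hsf1, Hsph1, Vhl and Hsp90b1 on the left.

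Among the clients, 1 of 12 actin and tubulin genes rose between littermates and none fell in limma, against 5.85% of all genes called higher. This was Actb, beta-actin, at 2247, 1923 and 1203 in Rbpj-/- embryos, against 879, 714 and 835 in controls, without overlap (log2 fold change 1.36 ± 0.19, SE; limma, adjusted p = 0.0030). Actb passed in 18 of 19 alternatives. Gamma-actin, Actg1, was at 738, 1619 and 743 in Rbpj-/- embryos, against 1050.2, 887 and 1058 in controls, without a call. Tuba1b was at 175, 192 and 174 in Rbpj-/- embryos, against 119.7, 121 and 113 in controls, with no overlap. It was not called in limma (adjusted p = 0.0874) and was called in DESeq2 (log2 fold change 0.71, adjusted p = 0.00826). DESeq2 called 2 of the 12 genes, both higher, against 11.1% of genes called higher there. Tuba1c (0.63) and Tubb6 (1.86) did not pass in limma.

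Of 10 other clients, 2 fell between littermates and none rose in limma, against 11.3% of all genes called lower. Vhl, a tumour suppressor whose folding needs CCT, was at 59.5, 133 and 166 in Rbpj-/- embryos, against 209.7, 262 and 217 in controls (log2 fold change −1.35 ± 0.33, SE; limma, adjusted p = 0.0244). Stat3 was at 5.08, 19.2 and 90.6 in Rbpj-/- embryos, against 37.2, 42.6 and 53.8 in controls. Here the litter 810 embryo was above all controls and its litter 808 counterparts below them (−2.02 ± 0.53; limma, adjusted p = 0.0307). Without Rbpj-/- 1 the estimates were −0.78 for Vhl (limma, adjusted p = 0.0838) and −1.16 for Stat3 (limma, adjusted p = 0.105). Hdac3 (−1.42) and Gnb1 (−0.64) did not pass in limma. edgeR called none of the 10 clients, and DESeq2 called 3 lower, Vhl, Stat3 and Hdac3 (−1.40, adjusted p = 0.0371). Over all genes edgeR called 12.6% and DESeq2 26.2%, in either direction.

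Of 18 genes of the cytosolic HSP70 and HSP90 system, Hsph1 fell and none rose between littermates in limma, against 11.3% of all genes called lower and 5.85% called higher. Hsph1, a nucleotide exchange factor for HSP70, was at 20.7, 42.3 and 112 in Rbpj-/- embryos, against 71.2, 75.9 and 136 in controls (log2 fold change −1.57 ± 0.41, SE; limma, adjusted p = 0.0293). Hsp90aa1 (0.57), Dnaja1 (0.54) and Dnajb6 (0.51) had adjusted p between 0.0532 and 0.0848 in limma. The balance depended on the tool. edgeR called Hsp90aa1 and Dnaja1 higher and none lower, and DESeq2 called 4 of the 18 higher (Hsp90aa1, Dnaja1, Dnajb6 and Ahsa1) and Hsph1 lower. The backgrounds in either direction were 12.6% in edgeR and 26.2% in DESeq2, where 11.1% of genes were called higher. Among 6 chaperones of the mitochondria and endoplasmic reticulum, Hsp90b1 fell, at 70.4, 39.3 and 155 in Rbpj-/- embryos, against 121, 146 and 125 in controls (−1.29 ± 0.31; limma, adjusted p = 0.0218), while Hspe1 (0.62), Hspa9 (−0.62) and Hspa5 (−0.29) did not pass. Hsf1, the heat shock transcription factor, was at 14.2, 20.4 and 44.4 in Rbpj-/- embryos, against 63.2, 75.3 and 52.5 in controls, all Rbpj-/- below (−1.83 ± 0.37; limma, adjusted p = 0.0128). Hsf2 was at −1.41 and did not pass. The limma counts called lower were 1 of the 6 organelle chaperones and 1 of 2 heat shock factors, against 11.3% of all genes. Without a variance trend in limma none of the 10 genes called in these lists between littermates passed, Pfdn1, Pfdn5, Pfdn6, Txndc9 and Actb included (adjusted p 0.0602 to 0.159). Removing the length dependence also ended the calls of Stat3 (adjusted p = 0.120), Hsph1 (0.122) and Hsp90b1 (0.0551), in limma. Leaving out single embryos ended some of these calls as well. Hsph1 was at −1.08 (limma, adjusted p = 0.133) without Rbpj-/- 1, Hsp90b1 at −0.88 (limma, adjusted p = 0.0532) without Rbpj-/- 2 and Hsf1 at −1.70 (limma, adjusted p = 0.0714) without wildtype 1 and −1.83 (limma, adjusted p = 0.0583) without the heterozygote. Leaving out any one control ended the calls of Txndc9, Vhl, Stat3, Hsph1 and Hsp90b1 (limma, adjusted p 0.0653 to 0.131).

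Over all 6 embryos no gene of any of these lists passed in limma, as no gene of the table did. edgeR called none of them either, and no gene at all. DESeq2 called Pfdn1 (log2 fold change 1.23, adjusted p = 0.0499) and Actb (1.21, adjusted p = 0.0111), against 4.59% of the genes with an adjusted p there. At an unadjusted p under 0.05 there were 1 of 6 prefoldin genes, 1 of 3 phosducin-like genes, 2 of 12 actin and tubulin genes, 1 of 10 other clients and 1 of 2 heat shock factors, against 16.4% of all genes. Both comparisons share the 3 controls and Rbpj-/- 1 and 2, so they are not independent of each other.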

How the data were processed

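cDNA of single morulae was made with a SMART-Seq low-input kit and sequenced on an Illumina HiSeq. The submitters' processing notes name CASAVA 1.8.2, cutadapt 1.3 and RSEM 1.2.3, while the study's methods give another RSEM release. Reads were assigned to the GRCm38 transcriptome, and the authors deposited normalised signal values, expected counts scaled to CPM with TMM size factors in edgeR. In every library 100% of the values were whole multiples of the value of 1 read (tolerance 0.01), so reads per gene were recovered by division. These are not independent molecules, and only counting error follows from depth, 2962425 to 14585313 reads per embryo. In value, 3 reads corresponded to 0.201 to 1.09 depending on the library.

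Genes exceeding 1 in 3 or more embryos, 12099 in all, were tested with limma 3.58.1 (R 4.3.3) with a variance trend on log2(value + 1), two-sided, with Benjamini-Hochberg adjustment over all of them and a threshold of 0.05, first on genotype in all 6 embryos and then with litter as a covariate. edgeR 4.0.16 (quasi-likelihood) and DESeq2 1.42.0 on recovered reads, other pseudocounts, filters, scalings and weights, thinning, removal of a loess trend on transcript length (12019 genes with a length in GENCODE) and leaving out each embryo were alternatives. The length trend used the longest annotated transcript of each gene. For Tcp1, Cct3 and Cct7 this was longer (3419, 3335 and 3884 bases) than the main transcript used for levels per kilobase. Embryos are separate animals of 2 litters, as read from the numbers in the sample titles. Group means have SDs over 3 embryos, and ratios and shares were computed within each embryo. Scripts were tested on simulated data. The members, lists and rule for named genes (all members, up to 4 genes per list with the smallest littermate p, and the 5 most alike genes) were chosen with earlier results of these data known. Actg1, Ahsa1, 4 morula markers, Epcam and Ovgp1 were named outside that rule, after their values were seen.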

Additional observations from a re-analysis of the deposited data

How the results depend on the processing

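The members called were 0 of 8 in every alternative over all 6 embryos. Between littermates 2 were called by DESeq2, 0 in the other alternatives that kept every Rbpj-/- embryo, and 0 to 1 when single embryos were left out. No paired analysis was possible because the embryos carry no replicate numbers shared between genotypes. Quantile normalisation moved the median of all genes to 0.07 over 6 embryos and 0.10 between littermates (log2), against −0.11 and −0.16, and the median of the members to −0.045 and −0.068. It gave Tcp1 −0.037, Cct2 −0.071 and Cct7 −0.054 over 6 embryos, and Tcp1 −0.13, Cct3 −0.0084, Cct7 −0.21, Dnaja1 −0.011 and Dnajb6 −0.010 between littermates. Cct6a took a positive sign over 6 embryos with median of ratios scaling (0.050), array weights (0.089), edgeR (0.034), DESeq2 (0.086), without the heterozygote (0.0019) and after thinning (0.014). Cct2 was at −0.095 without the heterozygote and −0.039 after thinning. With the length trend removed Cct2 was at −0.32 and Cct5 at −0.028 over 6 embryos, and Cct2 at −0.23, Cct5 at −0.030, Tbca at −0.44 and Hspe1 at −0.25 between littermates. All genes called over 6 embryos numbered 0 in limma, 1564 with array weights, 360 with DESeq2, 3 without the heterozygote, 2074 with litter as a covariate and 0 to 2142 when single embryos were left out. Between littermates 2074 genes were called, 268 without a variance trend, 1138 with the length trend removed, 717 without the heterozygote and 511 to 2494 when single embryos were left out. Of the calls between littermates 65.9% were lower in Rbpj-/-, against 58.9% with quantile normalisation, 57.5% with DESeq2 and 93.7% without a variance trend. Leaving out single embryos, the median of the members was 0.0019 to 0.27 over 6 embryos and 0.0056 to 0.40 between littermates. The lowest and highest estimates were then −0.11 and 0.24 for Tcp1, −0.12 and 0.19 for Cct2 and −0.14 and 0.24 for Cct6a over 6 embryos, and −0.27 and 0.42 for Tcp1, −0.029 and 0.53 for Cct3, −0.51 and 0.26 for Cct6a and −0.69 and 0.11 for Hspa5 between littermates. The cause of these changes was not tested. There were 3 embryos a group, and the 2 Rbpj-/- embryos of litter 808 had the shallowest libraries. In the main limma fits only Cct8 had a 2-fold difference within its interval. With the length trend removed the intervals of all 8 members lay within −1 to 1 in both comparisons.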
